A study of Mus musculus with 90 samples.

Results

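The genes described here are 33 genes of hepatic fatty acid oxidation and ketone body metabolism, taken from a liver RNA-seq table of 24312 gene symbols and 54 libraries. They were listed by function. Where a symbol had several RefSeq IDs, as 6 of the members did, the ID with the highest mean level over all libraries stood for the gene. All 33 passed the filter on low values in each of the 5 RNA experiments.

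The study compared livers of mice trained to night-restricted feeding (NRF) around the switch from light to dark, with times given as zeitgeber time (ZT, hours after lights on). In the NRF experiment, wild-type C57BL/6 mice (C57BL/6N in the study's methods) were sampled unfed at ZT10, unfed at ZT14 or fed at ZT14, with 2 livers in each group. In the injected mice, of the same strain and with 4 livers in each group, fed animals at ZT14 had received vehicle (PBS), the synthetic glucocorticoid dexamethasone (dex, 1 mg/kg), the insulin receptor antagonist S961 (44 nM per mouse as the labels write it) or dex with S961, and a further group was unfed with vehicle. In L-GRKO, floxed GR (Nr3c1 fl/fl) mice on a C57BL/6 background (C57BL/6N in the methods) had received an adeno-associated virus carrying CRE or GFP from a hepatocyte promoter (TBG), and all were unfed at ZT14, 4 livers each. In L-IRSdKO, mice on a C57BL/6 background (C57BL/6J in the methods) with floxed Irs1 and Irs2, without or with Cre from the albumin promoter, were all fed and all given dex at 1 mg/kg, 4 livers each. In the obesity experiment, wild-type C57BL/6 mice had 10 weeks of high-fat diet (DIO, diet-induced obese) or chow (lean) before NRF and were fed or unfed at ZT14, 3 livers each. Each library is 1 mouse liver, so the p-values measure the spread between single mice.

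Long-chain fatty acids reach beta-oxidation after activation to acyl-CoA by ACSL enzymes and transfer into mitochondria by the carnitine shuttle, of which CPT1A is the step inhibited by malonyl-CoA. Very long chains are shortened first in peroxisomes, and the acetyl-CoA made by the liver between meals is turned into ketone bodies. PPARA, a nuclear receptor activated by fatty acids, binds direct repeats of a hormone receptor half-site and is known to drive most of these genes during fasting, while insulin restrains the pathway.

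Levels were high for almost all members, as is usual in liver. Mean RPKM (reads normalised to transcript length and library total) over the 54 libraries ran from 2.84 for Abcd2, a peroxisomal importer of very long-chain acyl-CoA, to 3368 for Fabp1, the liver fatty acid-binding protein, which alone held 42.9% of the summed member RPKM. Next came Slc27a2, a very long-chain acyl-CoA synthetase, at 595, Acaa2, the last thiolase of mitochondrial beta-oxidation, at 433, Acsl1, the main hepatic long-chain acyl-CoA synthetase, at 418, and Acaa1b, a peroxisomal thiolase, at 255. Ppara averaged 56.6 RPKM and Cpt1a 135. Acaa1a and Acaa1b shared 34.1% and 35.5% of their 50-base transcript words, so reads can pass between them. Eci2 shared 7.9% with Eci3. Exons of Acadvl, Hadha, Eci2, Acaa1a, Acaa1b, Abcd3 and Slc27a2 overlapped genes on the other strand, and whether counting used strand is not given in the sources used here.

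Levels differed between experiments in ways that follow the experiment and not a treatment, so comparisons were kept within experiments. Fabp1 lay between 312 and 441 RPKM in the 8 L-IRSdKO libraries against at least 1962 elsewhere, and the summed level of 6 hepatocyte markers lay between 2549 and 3091 RPKM there against 34092 to 80879 elsewhere. Hadhb lay between 70.2 and 125 RPKM in L-GRKO against 8.28 to 23.2 elsewhere. Hadhb had 3 RefSeq IDs and was read through 1 of them, and levels of its other IDs are not given here. The NRF libraries, made after depletion of ribosomal RNA, held Pex11a at 4.37 to 13.1 RPKM. Relative depths, read from the smallest steps of the RPKM values, ranged from 0.549 to 1.145 among the injected libraries and from 0.804 to 1.519 in L-GRKO. The targeted genes were read first. Nr3c1 (GR) was 14.2 ± 1.55 RPKM (SD, n = 4) with GFP and 4.41 ± 0.637 with CRE, a log2 fold change of -1.58 (limma, Benjamini-Hochberg adjusted p = 6.83e-05). Irs1 was 4.03 ± 1.22 RPKM in floxed and 0.199 ± 0.082 in knockout livers (log2 fold change -2.66, limma adjusted p = 9.16e-04), while Irs2 ranged from 0.614 to 5.61 and from 0.272 to 1.00 RPKM, overlapping (limma adjusted p = 0.308).

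The deposited ChIP-seq peak lists give binding of GR (10446 peaks) and of FOXO1 (8546 peaks), a transcription factor kept out of the nucleus by insulin. The authors called both lists in unfed mice at ZT14 and reported lower occupancy by both factors after feeding. DNase-seq gives 83592 hypersensitive sites from fed and unfed livers together, and all lists are on mm9. All 33 members had a hypersensitive site within 50 kb of the annotated gene start. A GR peak lay within 50 kb of 29 of the 33 (87.9%), compared with 48.0% of 10564 tested genes. Because members are highly expressed, the same shares were taken over genes at a mean of 10 RPKM or more, where they were 26 of 30 members (86.7%) and 65.3% of 2556 genes. FOXO1 peaks lay within 50 kb of 25 members (75.8%, against 51.0% of all), or 22 of 30 (73.3%) against 65.8% among genes at 10 RPKM or more. Of the members, 24 had both and Acads, Etfa and Etfb had neither. Slc27a2 had the most GR peaks, 7, and Ppara (chr15:85565413-85633249, plus strand) the most FOXO1 peaks, 8, with its nearest peaks of both kinds centred 2.37 and 2.26 kb upstream of the start. Cpt1a (chr19:3323301-3385732, plus strand) had 3 GR and 4 FOXO1 peaks, the nearest GR peak 3.05 kb upstream. Around the members, 43 of 84 GR peaks (51.2%) overlapped a FOXO1 peak, near the 48.8% of all GR peaks.

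**Figure D1:**
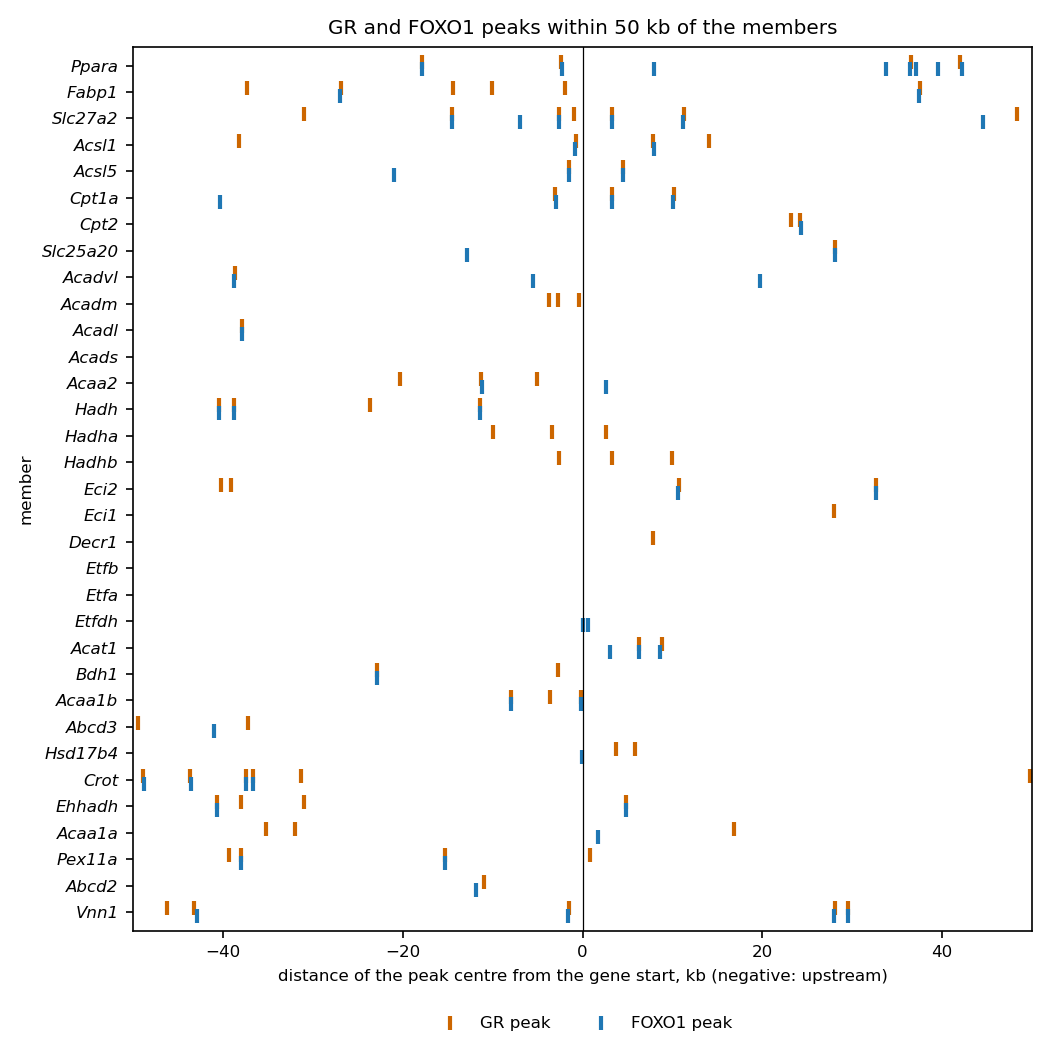
Distance in kb of GR (orange) and FOXO1 (blue) peak centres, from unfed livers, to the annotated start of each of the 33 members, negative values being upstream. Acads, Etfa and Etfb have no tick within 50 kb, and 24 members have ticks of both colours.

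The 13 members that passed the test with S961 or after loss of hepatic GR all had a GR peak within 50 kb. Of these members, 7 had such a peak outside exons with a searched motif. Peaks that overlapped an exon were left out of this count, and the share of all genes was not taken. The 7 peaks shown were chosen for their motifs and are not always the GR peaks nearest to the genes. Their centres ran from -31.35 kb (Crot) to 4.83 kb (Ehhadh) from the gene start, negative values being upstream. The Bdh1, Acaa1b and Slc27a2 peaks shown lay at -22.89, -7.95 and -2.57 kb. Each of these genes had a nearer GR peak, at -2.7, -0.14 and -0.97 kb. The motifs were a GR element (GNACA and TGTNC with 3 free bases between them), the FOXO letters TGTTTAC, and a DR1, which is a pair of AGGTCA half-sites 1 base apart with at most 2 mismatches, all on both strands. The sequences are mm9, plus strand, 5′ to 3′, 180 bases each, with motif letters in capitals. The Ehhadh peak, at chr16:21783002-21783181 in an intron of Ehhadh, the Acaa1b peak at chr9:119074068-119074247, the Hadh peak at chr3:130986390-130986569 and the Slc27a2 peak at chr2:126375482-126375661 hold the FOXO letters. The Bdh1 peak at chr16:31399387-31399566 holds 2 DR1 matches, the Crot peak at chr5:9028583-9028762 holds 1, and the Pex11a peak at chr7:86887161-86887340, in an intron 0.77 kb inside the gene, holds the GR element.
Ehhadh: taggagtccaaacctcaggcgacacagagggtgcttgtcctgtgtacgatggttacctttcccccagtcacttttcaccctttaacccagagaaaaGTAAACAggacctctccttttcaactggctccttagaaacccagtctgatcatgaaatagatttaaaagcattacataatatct
Acaa1b: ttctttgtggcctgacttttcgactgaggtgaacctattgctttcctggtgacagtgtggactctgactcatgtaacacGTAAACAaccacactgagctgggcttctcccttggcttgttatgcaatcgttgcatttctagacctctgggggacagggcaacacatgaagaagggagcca
Hadh: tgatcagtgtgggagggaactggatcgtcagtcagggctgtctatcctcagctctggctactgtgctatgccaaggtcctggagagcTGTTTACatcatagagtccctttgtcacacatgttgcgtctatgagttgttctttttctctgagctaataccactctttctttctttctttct
Slc27a2: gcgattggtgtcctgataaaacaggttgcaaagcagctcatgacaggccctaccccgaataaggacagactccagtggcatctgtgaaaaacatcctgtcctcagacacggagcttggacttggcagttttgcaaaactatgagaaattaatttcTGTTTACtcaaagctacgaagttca
Bdh1: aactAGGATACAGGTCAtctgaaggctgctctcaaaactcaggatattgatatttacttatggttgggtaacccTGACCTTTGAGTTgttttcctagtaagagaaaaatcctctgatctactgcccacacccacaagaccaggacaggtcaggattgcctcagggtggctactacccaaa
Crot: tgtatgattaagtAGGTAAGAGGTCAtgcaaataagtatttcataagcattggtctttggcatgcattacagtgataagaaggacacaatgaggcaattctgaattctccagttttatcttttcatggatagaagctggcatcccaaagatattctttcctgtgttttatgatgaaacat
Pex11a: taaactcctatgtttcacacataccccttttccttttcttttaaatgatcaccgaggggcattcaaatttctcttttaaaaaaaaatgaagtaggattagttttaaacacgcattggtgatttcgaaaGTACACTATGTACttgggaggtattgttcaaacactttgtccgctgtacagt
FOXO1 peaks covered 157 bases of the Ehhadh peak, 163 of the Acaa1b peak, 143 of the Hadh peak, 173 of the Slc27a2 peak and 177 of the Bdh1 peak, and none of the Crot and Pex11a peaks. The shares of peaks with each motif were close between members and all peaks. GR elements were in 5.95% of GR peaks near members and 7.8% of all, FOXO letters in 8.33% and 7.29%, and DR1 in 9.52% and 8.16%. In RefSeq promoters (GRCm38, 250 bases before to 50 after the start), found for 27 of the 33 members, a DR1 was in those of Etfa, Fabp1 and Slc25a20 (11.1%), against 3.81% of all 27025 promoters.

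Between ZT10 and ZT14 without food, no member passed the limma test at an adjusted p under 0.01, the threshold used for this experiment, against 0.376% of all genes higher and 0.788% lower. At an unadjusted p under 0.05 there were 10 of 33 (30.3%), close to the 26.4% of all genes. Pex11a, which promotes peroxisome division, read 5.71 and 4.37 RPKM at ZT10 and 7.29 and 13.1 at ZT14-unfed. Bdh1, the mitochondrial enzyme that makes the ketone body 3-hydroxybutyrate, read 30.8 and 27.4 at ZT10 and 20.5 and 13.3 at ZT14-unfed. Neither gene overlapped between the groups, and neither passed. With 2 livers a group, 14.9% of all genes were higher without overlap and 41.2% lower, and so were 8 members in each direction. With the meal, ZT14-fed against ZT14-unfed, 0 members passed (limma; 4 at an unadjusted p under 0.05, or 12.1%, and 27.7% of all genes), against 0.568% of all genes higher and 0.422% lower. Ppara read 19.5 and 33.1 RPKM unfed and 28.7 and 30.7 fed, and Cpt1a 55.9 and 76.0 unfed and 64.6 and 70.4 fed. The fed values of both lay between the unfed ones.

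From ZT10 to ZT14-fed, 1 member passed, against 0.899% of all genes higher and 0.807% lower. Crot, the peroxisomal carnitine octanoyltransferase that hands shortened chains on to mitochondria, read 182 and 139 RPKM at ZT10, 100.2 and 106 at ZT14-unfed and 83.3 and 80.5 at ZT14-fed. Its fall was by 0.95 on the log2(RPKM + 0.5) scale (SE 0.13, limma adjusted p = 0.0089), and it missed the threshold when any 1 of the 4 libraries compared was left out (adjusted p 0.0156 to 0.0921). Summed endothelial markers were 49.3 to 53.8 RPKM at ZT10 and 42.1 to 47.1 at ZT14-fed, with 3 of 4 lower without overlap. Those of hepatocytes were 37383 to 37394 RPKM at ZT10 and 34092 to 36783 at ZT14-fed, with 1 of 6 (Apoa2) lower without overlap. The part of these markers in the result was not tested. In the pathway list of 56 other tested genes of fatty acid oxidation and ketone bodies, Hacl1, a peroxisomal lyase of alpha-oxidation, was the single call in both of the first comparisons, rising by a log2 fold change of 0.99 without food (limma adjusted p = 0.0042) and falling by 0.83 with the meal (limma adjusted p = 0.0056).

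The meal was tested again in vehicle-injected mice (fed vehicle against unfed vehicle). No member passed at an adjusted p under 0.05 (limma; 2 at an unadjusted p under 0.05, or 6.06%, and 19.3% of all genes), against 2.55% of all genes higher and 0.578% lower. Ppara read 74.8, 76.1, 82.9 and 46.4 RPKM unfed and 45.1, 50.7, 49.0 and 66.1 fed. The first 3 replicates were all higher unfed, and the fourth was the reverse. Replicate 4 of every injected group came from a separate series of library numbers, and their deviations from the group means correlated with each other at 0.441 to 0.605, so each injected result was also taken without these 5 libraries. Ppara then passed, falling by 0.69 with the meal (SE 0.14, limma adjusted p = 0.014), when 1.5% of all genes were lower, compared with a fall by 0.39 (SE 0.20, adjusted p = 0.299) over all. Summed Kupffer cell markers were 45.1 to 58.7 RPKM unfed and 62.6 to 98.5 fed, with 2 of 5 (Adgre1 and Cd5l) higher without overlap, and their part in the result was not tested. Cpt1a read 152, 146, 154 and 124 unfed and 113, 114, 139 and 128 fed (log2 fold change -0.22, SE 0.12, limma adjusted p = 0.342). Among 57 other pathway genes, 2 rose, Aacs, the cytosolic acetoacetyl-CoA synthetase, by 1.56 and Slc16a6, a ketone body transporter, by 0.94 (limma adjusted p = 0.019 and 0.0261).

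The insulin receptor antagonist S961 was compared with vehicle in fed mice. With S961, 4 members passed and all were higher, against 0.942% of all genes higher and 0.96% lower. The median log2 fold change was 0.217 over the members and -0.079 over all genes, and 30 of 33 were above 0. Ehhadh, the bifunctional enzyme of peroxisomal beta-oxidation, read 102, 89.0, 78.0 and 61.3 RPKM with vehicle and 147, 219, 204 and 264 with S961. Every S961 library was above every vehicle library (log2 fold change 1.32, SE 0.23, limma adjusted p = 0.0054). Acsl1 read 463, 399.6, 468 and 432 with vehicle and 583, 651, 777 and 778 with S961, again apart (0.65, SE 0.12, limma adjusted p = 0.0091). Pex11a read 48.1, 43.1, 59.5 and 49.1 with vehicle and 61.8, 83.1, 75.4 and 96.6 with S961 (0.65, SE 0.14, limma adjusted p = 0.015). Slc27a2 read 572, 604, 607 and 746 with vehicle and 752, 802, 852 and 901 with S961 (0.39, SE 0.10, limma adjusted p = 0.045). For the last pair of genes the groups came close to touching.

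By role, the calls with S961 were 2 of 4 members of uptake and activation and 2 of 8 peroxisomal members, and 0 among the other roles. All 3 carnitine shuttle members were above 0, with a median of 0.426, beside 0.304 for uptake and activation and 0.355 for peroxisomal members. Cpt1a itself read 133, 185, 181 and 169.7 RPKM with S961 (0.43, SE 0.12, limma adjusted p = 0.087), and it passed without S961 replicate 1, at 0.53 (adjusted p = 0.0216), after median-ratio scaling (adjusted p = 0.0435) and with a term for the series of library numbers described above (adjusted p = 0.0353). With that term 8 members passed, the added ones being Cpt1a, Slc25a20, Eci2 and Crot, against 1.8% of all genes higher, and after the scaling 6 passed, with Cpt1a and Crot added, against 1.28%. Ppara read 48.3, 77.0, 69.6 and 81.6 with S961 and overlapped vehicle (0.38, SE 0.20, limma adjusted p = 0.419). The values of 8 members did not overlap between the groups and were higher with S961, against 2.04% of all genes. Without replicate 4 of every group, 4 members again passed (0.988% of all genes higher), 3 of them the same (Ehhadh, Acsl1 and Slc27a2) and Crot in place of Pex11a, whose adjusted p became 0.0935. Pex11a also missed the threshold without vehicle replicate 1 or 2 or S961 replicate 2 or 4 (adjusted p 0.0513 to 0.0709), and Slc27a2 without vehicle replicates 1, 2 or 3 or S961 replicates 2, 3 or 4 (0.0786 to 0.142). Ehhadh and Acsl1 passed without each library in turn, and Ehhadh alone did when only these 2 groups were fitted (adjusted p = 0.0472, with 0.141% of all genes higher). The summed level of 5 Kupffer cell markers was 62.6 to 98.5 RPKM with vehicle and 42.7 to 64.5 with S961, with Adgre1 and Cd5l (2 of 5) lower without overlap, and the part of this in the result was not tested. In bulk liver, fewer cells of a type and less RNA per cell cannot be told apart. Among 57 other pathway genes, 5 rose and 0 fell. Cpt1b, the muscle form of the shuttle enzyme, rose by 1.10 and Ppargc1a, a coactivator of PPARA, by 0.81 (limma adjusted p = 0.01 and 0.0092).

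**Figure D2:**
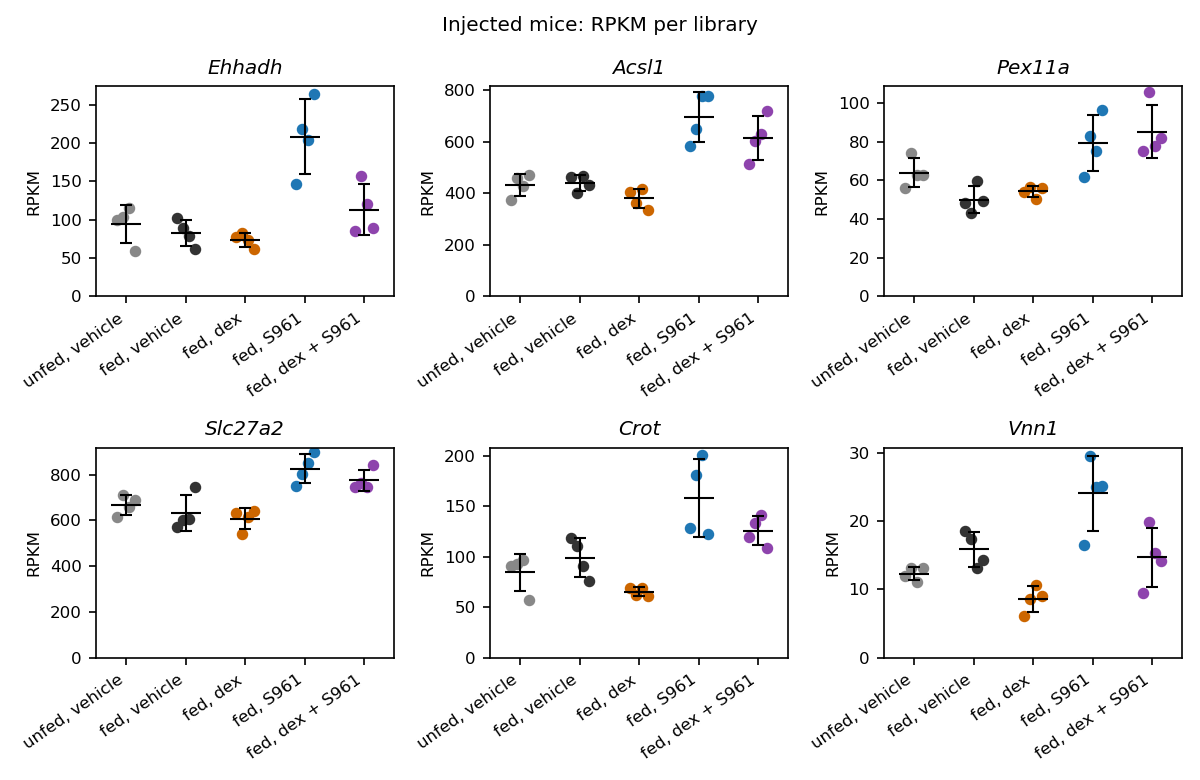
RPKM per library of 6 members in the 5 groups of injected mice, 4 livers each, with the mean and SD in black. Ehhadh is 147 to 264 RPKM with S961 and at most 102 in fed mice with vehicle, and Vnn1 is 6.05 to 10.6 with dex and 13.1 to 18.5 with vehicle.

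Dex in fed mice moved 1 member, against 1% of all genes higher and 2.19% lower. Vnn1, a pantetheinase and known PPARA target, read 18.5, 17.3, 13.1 and 14.3 RPKM with vehicle and 6.05, 8.56, 10.6 and 8.99 with dex, and fell by 0.86 (SE 0.20, limma adjusted p = 0.0249). Without vehicle replicate 1 or 2 or dex replicate 1 or 2 it missed the threshold (adjusted p 0.0644 to 0.104). The median of the members was -0.142 and that of all genes -0.098. Without the replicate 4 libraries, 8 members fell (Slc25a20, Decr1, Acaa1b, Hsd17b4, Abcd3, Crot, Vnn1 and Fabp1), of which 4 act in peroxisomes, and Abcd2 rose, when 5.2% of all genes were lower and 2.08% higher. Crot read 119, 110.4, 90.7 and 75.8 with vehicle and 68.7, 62.5, 69.3 and 60.9 with dex, lower in every dex library. Its fall of 0.58 over all 4 replicates gave a limma adjusted p of 0.09. With a term for the series of library numbers Crot passed (SE 0.13, limma adjusted p = 0.0094), as did Cpt2, Abcd3 and Vnn1, all lower. The share of all genes called in that fit is not given here. Abcd2 read 2.00, 1.81, 0.967 and 0.903 with vehicle and 4.30, 6.84, 4.71 and 0.958 with dex, so 3 of 4 dex libraries were above all vehicle libraries and replicate 4 was among them. With all libraries its log2 fold change was 1.12 (SE 0.38, limma adjusted p = 0.112), and 1.48 without replicate 4 (SE 0.28, limma adjusted p = 0.0074). Summed Kupffer markers were 40.1 to 64.1 RPKM and summed endothelial markers 35.1 to 50.7 with dex, against 62.6 to 98.5 and 53.2 to 62.1 with vehicle, and their part was not tested. Ppara and Cpt1a did not pass, at 45.1, 38.9, 36.2 and 64.5 RPKM and at 144, 125, 113 and 101 RPKM with dex. Of 57 other pathway genes, Ppargc1a rose by 0.96 and 3 fell, Slc16a6 by 0.85 (limma adjusted p = 0.0015 and 0.0369).

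With dex and S961 together in fed mice, 3 members rose against fed vehicle, when 2.7% of all genes were higher and 7.9% lower. They were Pex11a at 75.4, 106, 77.9 and 82.2 RPKM (log2 fold change 0.76, SE 0.14, limma adjusted p = 0.0016), Eci2, an isomerase for unsaturated chains (0.58, SE 0.13, limma adjusted p = 0.012), and Acsl1 at 513, 603, 629 and 721 RPKM (0.48, SE 0.12, limma adjusted p = 0.017). Acsl1 missed the threshold without vehicle replicate 2 or dex + S961 replicate 4 (adjusted p 0.0624 and 0.0621). It also missed without the replicate 4 libraries of all groups, where Pex11a, Eci2 and Slc27a2 passed (limma adjusted p = 0.0074, 0.001 and 0.0216). The share of all genes called in that fit is not given here. Ehhadh, high with S961 alone, read 85.6, 158, 119.9 and 89.0 with dex + S961, overlapping vehicle. Summed Kupffer markers were 50.8 to 59.8 RPKM with both agents, below every vehicle library, and summed endothelial markers were 35.8 to 53.1, below the 53.2 to 62.1 of vehicle. In each list 2 markers were lower without overlap (of 5 and of 4), and their part in the result was not tested. The median of the members was 0.105 against -0.139 for all genes, and dividing each library by its median ratio to the others moved these to 0.271 and 0.008, with 6 members called and 4.16% of all genes higher. Against unfed vehicle mice, Acsl1 alone was higher in fed mice with both agents (0.50, SE 0.12, limma adjusted p = 0.031), when 1.32% of all genes were higher and 1% lower. That call was lost without any of dex + S961 replicates 2, 3 and 4 or unfed replicates 1, 2 and 3 (adjusted p 0.0562 to 0.126). It was also lost without the replicate 4 libraries of all groups. Eci2 was then higher (0.43, limma adjusted p = 0.0092) and Acsl5 lower (-0.46, limma adjusted p = 0.0342), the share of all genes again not being given. Whether the effect of S961 differed with dex was tested as an interaction, which called no member (3 at an unadjusted p under 0.05) and no gene (0% higher and 0% lower; limma, 513 of 11251 at an unadjusted p under 0.05). Of 57 other pathway genes, 4 rose and 1 fell against fed vehicle, led by Ppargc1a at 1.08 and Cpt1b at 0.74 (limma adjusted p = 2.3e-04 and 0.0286), and 3 rose against unfed vehicle, led by Aacs at 1.37 and Ppargc1a at 0.66 (limma adjusted p = 0.0339 and 0.0229).

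**Figure D3:**
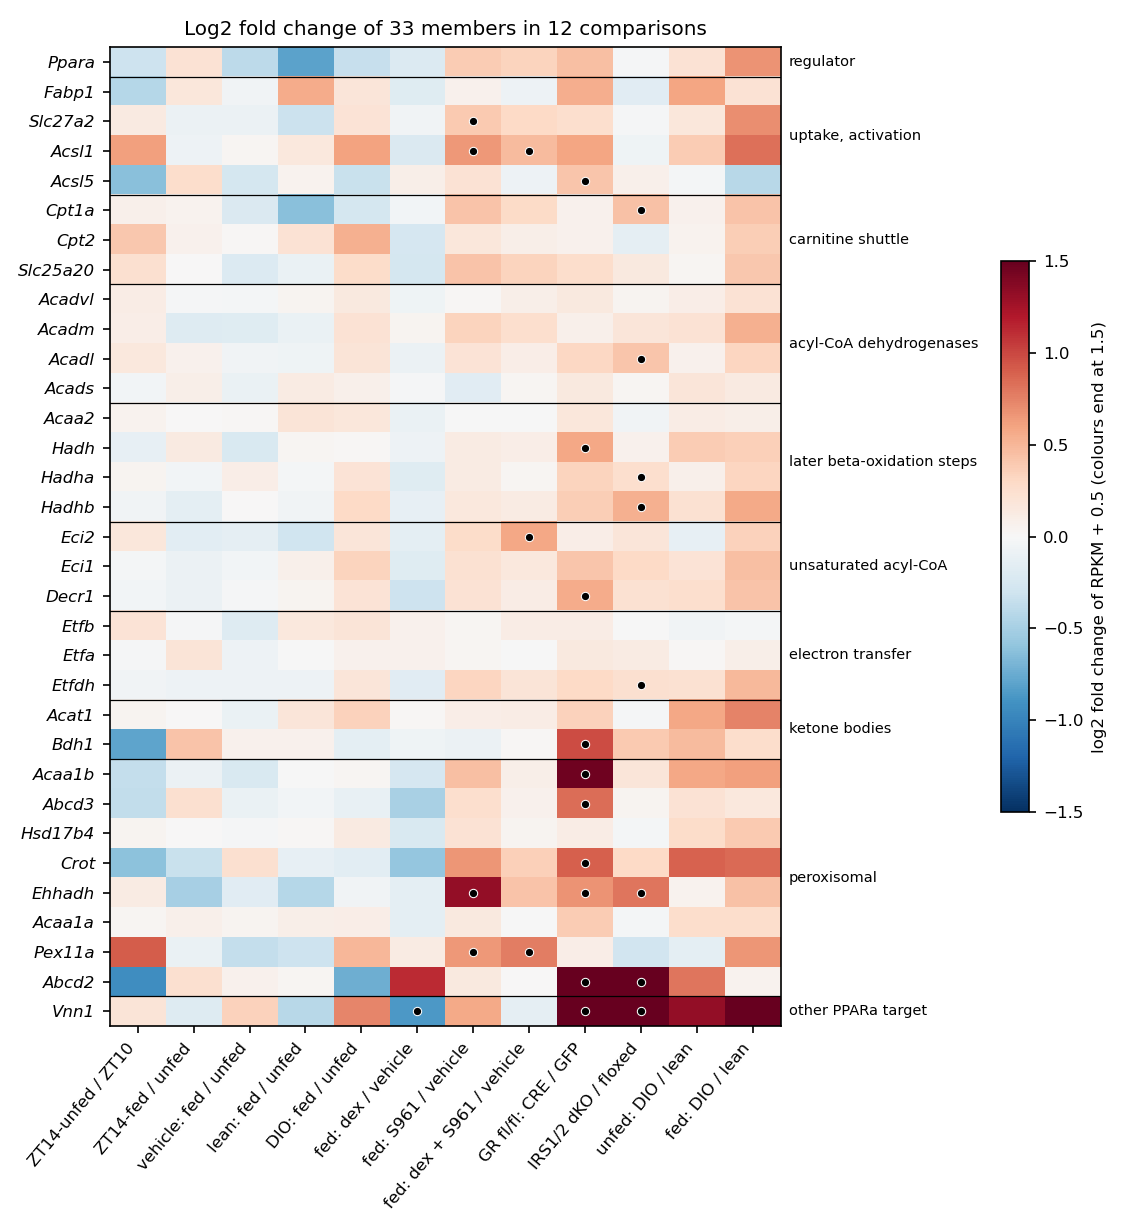
Log2 fold change of RPKM + 0.5 for the 33 members (rows, ordered by role) in 12 comparisons (columns), red for higher and blue for lower, with a black dot where the member passed the limma threshold of its experiment. The GR knockout column is above 0 for all 33 on the deposited scale (Cpt1a not so after median-ratio scaling), while the columns of fed against unfed carry no dot.

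After loss of hepatic GR in unfed mice (CRE against GFP), 10 members were higher and 0 lower, against 4.46% of all genes higher and 2.22% lower. The fold change was above 0 for all 33, with a median of 0.351 against 0.082 for all genes, or 0.254 against -0.003 after median-ratio scaling, under which 6 members passed (2.48% of all genes higher) and Cpt1a was no longer above 0. Peroxisomal genes made up 5 of the 10. Abcd2 (chr15:90976315-91022238, minus strand) read 1.08, 0.615, 1.74 and 0.719 RPKM with GFP and 8.03, 7.90, 4.25 and 5.68 with CRE, clear of each other (log2 fold change 2.19, SE 0.25, limma adjusted p = 7.5e-04). Acaa1b read 323, 219, 339.8 and 246 with GFP and 548, 955, 1086 and 601 with CRE (1.46, SE 0.23, limma adjusted p = 0.0045). Crot read 94.8, 67.9, 79.3 and 88.4 with GFP and 125, 179, 176 and 142 with CRE (0.90, SE 0.14, limma adjusted p = 0.0045). The same separation was seen for Abcd3, the main fatty acyl importer of liver peroxisomes, at 199.6, 151, 154 and 166 with GFP and 276, 335, 335 and 254 with CRE (0.84, SE 0.12, limma adjusted p = 0.0036).

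Ehhadh read 85.4, 58.2, 68.4 and 60.9 RPKM with GFP and 91.6, 112, 139.7 and 95.7 with CRE (0.68, SE 0.15, limma adjusted p = 0.027). Outside peroxisomes, Vnn1 read 6.50, 3.94, 8.01 and 4.98 with GFP and 21.2, 33.3, 15.5 and 11.5 with CRE (1.65, SE 0.29, limma adjusted p = 0.0085). Bdh1 read 58.5, 56.6, 68.1 and 52.5 with GFP and 124, 142, 106 and 97.3 with CRE (0.98, SE 0.13, limma adjusted p = 0.0018). Both genes were higher in every CRE library than in any GFP library. Hadh, the medium- and short-chain hydroxyacyl-CoA dehydrogenase, read 133, 95.3, 132 and 97.5 with GFP and 169, 196, 166 and 149 with CRE (0.58, SE 0.14, limma adjusted p = 0.029). Decr1, a reductase for unsaturated chains, and Acsl5 were also called. No carnitine shuttle, acyl-CoA dehydrogenase or electron transfer member passed, and Cpt1a read 161, 134, 130.2 and 157 with GFP and 153, 168, 141 and 146 with CRE, overlapping.

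The library of GFP replicate 1 stood apart from the other GFP libraries, with Pex11a at 104 RPKM against 43.7 to 45.0 and Acsl1 at 438 against 218 to 273. It was singled out by these values of members, so calls gained without it are no separate evidence. Without it, 12 members passed (3.17% of all genes higher), the added ones being Acsl1 and Ppara, the latter at 0.59 (SE 0.12, limma adjusted p = 0.0232). With it, Ppara read 58.9, 40.0, 37.4 and 42.5 with GFP and 65.2, 67.1, 61.8 and 49.1 with CRE, overlapping through that library (0.45, SE 0.15, limma adjusted p = 0.107). Ehhadh lost its call without any 1 of GFP replicates 2 to 4 or CRE replicates 2 and 3 (adjusted p 0.0506 to 0.0872), and Hadh without any 1 of GFP replicates 2 and 4 or CRE replicates 1 to 3 (0.0612 to 0.0937). Abcd2, Acaa1b, Bdh1, Crot, Abcd3 and Vnn1 passed without each library in turn. The values of 14 members did not overlap and were higher with CRE, against 9.49% of all genes. The summed level of 3 red-cell markers was 223 to 289 RPKM with GFP and 331 to 623 with CRE, each of the 3 being higher without overlap, and its part in these results was not tested. Of 57 other pathway genes, 7 rose and 1 fell, Acox2, the peroxisomal oxidase of bile acid intermediates, by 1.37 (limma adjusted p = 0.0074). Acsl3, another acyl-CoA synthetase, led the rises at 0.96 (limma adjusted p = 0.003).

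In fed, dex-treated mice without hepatic IRS1 and IRS2, 8 members were higher and 0 lower, against 9.06% of all genes higher and 8.31% lower. The median was 0.121 against 0.031 for all genes, and 22 of 33 were above 0. By role, the calls were 1 of 3 carnitine shuttle members, 1 of 4 mitochondrial acyl-CoA dehydrogenases, 2 of 4 members of the hydratase to thiolase steps, 1 of 3 of electron transfer, 2 of 8 peroxisomal members and Vnn1, and 0 of the auxiliary, ketone and uptake members. Cpt1a read 132, 113, 109 and 127 RPKM in floxed and 146, 169, 170.5 and 168 in knockout livers, without overlap (0.44, SE 0.08, limma adjusted p = 0.0097). Acadl, the long-chain acyl-CoA dehydrogenase, read 109, 106, 106 and 125 and then 142, 155, 154 and 142 (0.41, SE 0.07, limma adjusted p = 0.0077). Both subunits of the trifunctional protein passed. Hadhb, read through 1 of its 3 RefSeq IDs, was at 14.4, 13.7, 12.1 and 15.4 in floxed and 18.5, 19.9, 23.2 and 19.8 in knockout livers (0.53, SE 0.10, limma adjusted p = 0.012). Hadha read 103, 92.2, 91.3 and 104 and then 116, 118, 122 and 112 (0.26, SE 0.07, limma adjusted p = 0.030). Etfdh, which passes electrons from flavin dehydrogenases to ubiquinone, rose by 0.24 (SE 0.07, limma adjusted p = 0.045).

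Peroxisomal calls were Abcd2, at 2.67, 2.45, 1.76 and 1.62 RPKM in floxed and 8.38, 10.8, 9.75 and 8.72 in knockout livers (1.93, SE 0.16, limma adjusted p = 6.2e-04), and Ehhadh, at 126, 98.5, 121 and 123 and then 172, 194, 242 and 211 (0.80, SE 0.12, limma adjusted p = 0.0044). Vnn1 read 20.01, 19.0, 7.20 and 26.6 in floxed and 29.1, 49.6, 76.4 and 65.6 in knockout livers (1.62, SE 0.41, limma adjusted p = 0.028). Ppara read 66.1, 74.0, 59.0 and 58.4 in floxed and 71.5, 56.5, 59.6 and 67.1 in knockout livers, fully overlapping. Single libraries decided Etfdh (floxed replicates 1 to 3 and knockout replicates 1 to 3, adjusted p 0.0522 to 0.116), Hadha (floxed replicates 2 and 3 and knockout replicates 2 to 4, 0.0554 to 0.0873) and Vnn1 (floxed replicate 2 and knockout replicates 2 to 4, 0.0533 to 0.081). The values of 10 members did not overlap and were higher in the knockout, against 12.1% of all genes. Summed markers of Kupffer cells were 141 to 262 RPKM in floxed and 248 to 318 in knockout livers, with 1 of 5 (Clec4f) not overlapping. Those of lymphocytes were 0.192 to 0.643 and 0.764 to 1.24, with 1 of 3 (Cd3e) not overlapping and the other two reaching 0 in some libraries. Summed cholangiocyte markers were 3.44 to 5.43 in floxed and 1.65 to 2.91 in knockout livers, with 2 of 4 (Krt7 and Sox9) lower without overlap. Red-cell markers summed to 85.9 to 148 and 58.7 to 85.8, with 1 of 3 (Alas2) lower without overlap, and 2 of 4 endothelial markers (Stab2 and Pecam1) were higher without overlap while their sum overlapped. The part of these markers in the results was not tested. Of 57 other pathway genes, 7 rose and 8 fell, led by Ppargc1a, up by 2.18, and Bdh2, a cytosolic hydroxybutyrate dehydrogenase, down by 1.63 (limma adjusted p = 0.002 and 9.2e-04).

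**Figure D4:**
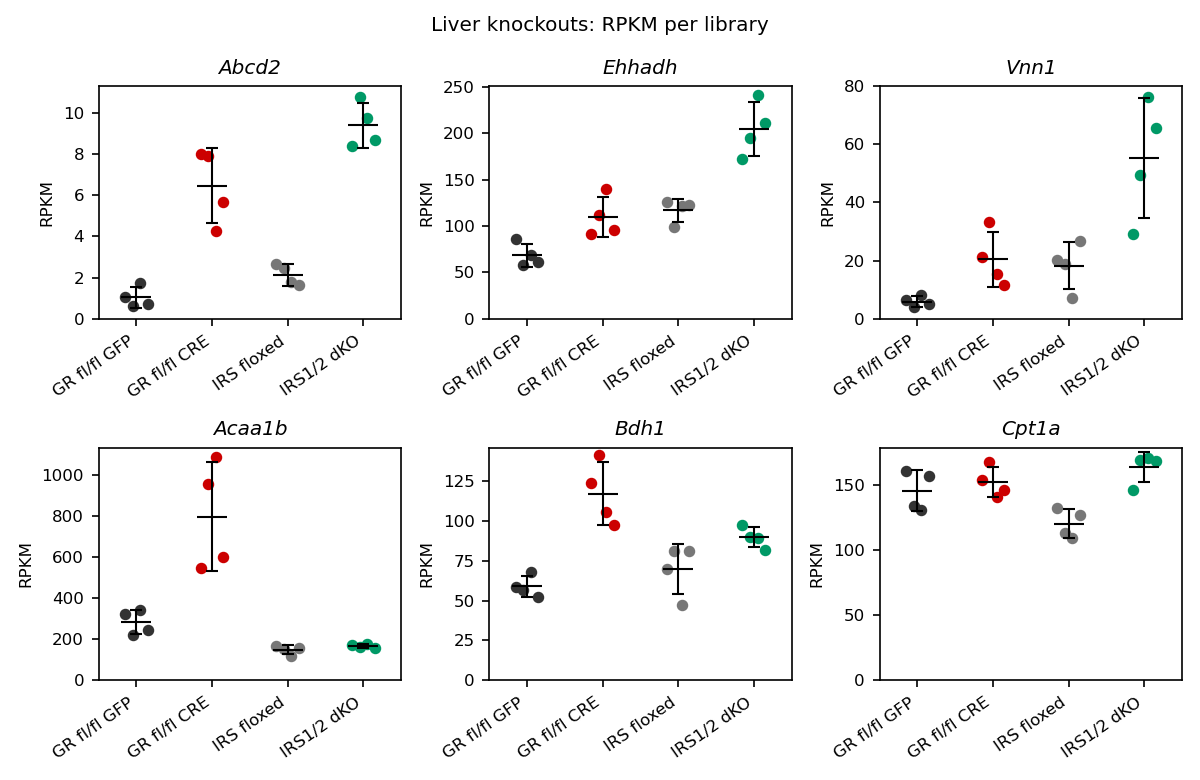
RPKM per library of 6 members in L-GRKO (unfed) and L-IRSdKO (fed, dex), 4 livers per group, with the mean and SD in black. Abcd2 is 4.25 to 8.03 with CRE and at most 1.74 with GFP, while Cpt1a overlaps in L-GRKO and is 146 to 170.5 in the IRS knockout against 109 to 132 in floxed livers.

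Abcd2, Ehhadh and Vnn1 were called in both knockouts, which is 30.0% of the 10 calls after GR loss and 37.5% of the 8 after IRS loss. Ehhadh was also 1 of the 4 calls with S961. In all comparisons, 19 members were called at least once. Shares of all genes called at least once or in both knockouts were not taken, so these counts carry no comparison with other genes. The 14 called in none were Ppara, Cpt2, Slc25a20, Acadvl, Acadm, Acads, Acaa2, Etfa, Etfb, Eci1, Acat1, Acaa1a, Hsd17b4 and Fabp1, which include 3 of the 4 acyl-CoA dehydrogenases.

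In lean mice of the obesity experiment the meal called no member at an adjusted p under 0.01 (limma; 3 at an unadjusted p under 0.05, or 9.09%, and 36.3% of all genes), when 7% of all genes were higher and 3.23% lower. Ppara and Cpt1a came closest. Ppara read 64.2, 69.4 and 65.0 RPKM unfed and 38.2, 35.4 and 39.4 fed, well apart (log2 fold change -0.81, SE 0.19, limma adjusted p = 0.0113). Cpt1a read 152, 174 and 156 unfed and 115, 102 and 96.2 fed, also apart (-0.62, SE 0.16, limma adjusted p = 0.0196). Fitted on the lean livers alone both passed, at adjusted p of 9.2e-04 and 0.0049, when 3.54% of all genes were lower. Summed endothelial markers were 49.1 to 59.3 RPKM in unfed and 36.1 to 42.5 in fed lean livers, all 4 being lower without overlap, and their part in the result was not tested. In DIO mice the meal called no member (limma; 1 at an unadjusted p under 0.05, or 3.03%, and 25.2% of all genes), against 0.962% of all genes higher and 0.262% lower. Ppara read 52.7, 96.4 and 89.3 unfed and 68.3, 61.2 and 52.4 fed (-0.35, SE 0.19, limma adjusted p = 0.277), and Cpt1a 125, 215 and 178 unfed and 149, 144 and 129 fed (-0.26, SE 0.16, limma adjusted p = 0.348). The meal effects did not differ detectably between diets. The interaction called no member, at 0.46 for Ppara (SE 0.26, limma adjusted p = 0.446) and 0.36 for Cpt1a (SE 0.23, limma adjusted p = 0.494), when 0.0875% of all genes were called higher and 0.0437% lower, and no member reached an unadjusted p under 0.05. Of 57 other pathway genes, the meal raised 4 and lowered 1 in lean mice, led by Aacs at 2.33 and Ppargc1a at -1.90 (limma adjusted p = 0.0053 and 8.3e-04), and called 0 in DIO mice.

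Between DIO and lean livers in fed mice, no gene passed at an adjusted p under 0.01 (0% higher and 0% lower; limma, 2284 of 11434 at an unadjusted p under 0.05, or 20%), and 15 of the 33 members reached an unadjusted p under 0.05 (45.5%). Fold changes were above 0 for 31 of 33, with a median of 0.394 against 0.011 for all genes. All 3 DIO values exceeded all 3 lean values for 25 members, against 17.8% of all genes, and 24 did so after median-ratio scaling. Crot read 85.1, 96.4 and 75.0 RPKM in lean and 143, 154 and 163 in DIO livers. Acat1, a mitochondrial thiolase of ketone body metabolism, read 121, 103 and 96.6 and then 174, 169 and 192. Ppara read 38.2, 35.4 and 39.4 and then 68.3, 61.2 and 52.4 (0.67, SE 0.19, limma adjusted p = 0.111), and Cpt1a 115, 102 and 96.2 and then 149, 144 and 129 (0.43, SE 0.16, limma adjusted p = 0.187). All 4 were thus higher in every fed DIO liver. Acsl5, another acyl-CoA synthetase, went the other way at 93.8, 94.1 and 87.2 in lean and 65.2, 71.0 and 70.5 in DIO livers.

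Fitted on the fed livers alone, 5 members passed between DIO and lean (Hadhb, Crot, Acsl1, Slc27a2 and Vnn1, all higher, limma adjusted p = 0.0081 each), when 0.404% of all genes were higher. The joint fit shares its spread with the unfed livers, of which DIO replicate 1 stood apart, with Acsl1 at 211 RPKM against 685 and 614 and Vnn1 at 4.22 against 65.8 and 26.8. That library was singled out by these values of members, so calls gained without it are no separate evidence. In unfed mice no member passed between DIO and lean (limma; 2 at an unadjusted p under 0.05, or 6.06%, and 22.9% of all genes), against 0.42% of all genes higher and 0.35% lower, and Acat1 (0.87) and Crot (1.12) passed without that library (adjusted p = 0.004 and 0.005), when 1.99% of all genes were higher. The median was 0.213 against 0.067 for all genes, and Crot alone did not overlap, at 75.5, 116 and 90.0 in lean and 123, 229 and 178 in DIO livers, against 16.2% of all genes. Summed hepatocyte markers were 52240 to 56306 RPKM in fed DIO and 64642 to 67186 in fed lean livers, with Alb and Ttr (2 of 6) lower without overlap, and their part in the result was not tested. Cholangiocyte markers summed to 1.77 to 2.70 in fed DIO and 2.88 to 3.43 in fed lean livers (1 of 4 not overlapping). In unfed livers, summed endothelial markers were 28.9 to 37.7 RPKM in DIO and 49.1 to 59.3 in lean, with 3 of 4 lower without overlap. Summed hepatocyte markers were lower there too, at 54224 to 60185 RPKM in DIO and 62976 to 73319 in lean, with 2 of 6 (Alb and Tat) lower without overlap. Cfd, 1 of the 4 adipocyte markers, was at 27.5 RPKM in 1 unfed DIO library, while Adipoq was at most 0.03 in that group and Lep and Plin1 were at 0. In the comparisons between diets, 0 of 57 other pathway genes were called (limma; 19 fed and 12 unfed at an unadjusted p under 0.05).

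**Figure D5:**
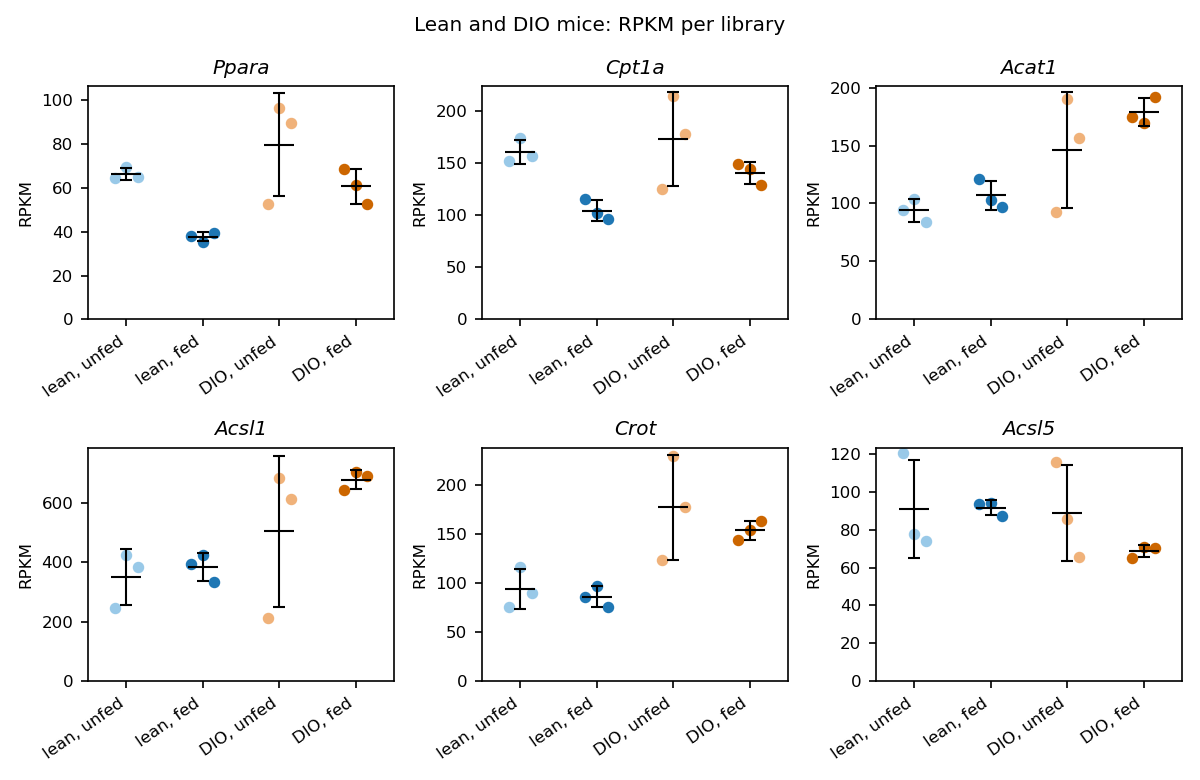
RPKM per library of 6 members in lean (blue) and DIO (orange) mice, unfed and fed, 3 livers per group, with the mean and SD in black. Fed DIO livers lie above fed lean livers for Ppara, Cpt1a, Acat1, Acsl1 and Crot and below them for Acsl5 (65.2 to 71.0 against 87.2 to 94.1 RPKM).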

How the data were processed

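Liver RNA was sequenced in 54 mice. The authors aligned reads with STAR to mm9 and quantified genes with HOMER, per their methods. The deposited table holds RPKM for 35707 RefSeq IDs, normalised by the authors for length and reads per library, and 35407 IDs carried a symbol. RPKM gives no counts, so no count model was used and depth was only estimated relative to other libraries. The deposited peak lists were used for positions alone, against GENCODE vM1 gene starts on mm9. For each experiment, log2(RPKM + 0.5) of genes with a mean of 0.5 RPKM or more was fitted over all its groups with limma 3.58.1 (trend, R 4.3.3), and p-values were adjusted by Benjamini-Hochberg over all genes tested. Calls were at an adjusted p under 0.01 (NRF, obesity) or 0.05 (injected, L-GRKO, L-IRSdKO). A fold change on this scale understates changes of low genes such as Abcd2. The fit of the first comparison in each experiment was also run on simulated data with known changes. Noise there was independent between libraries, so the correlation of the replicate 4 libraries was not covered, and the outcome is not given here. Levels and motifs were computed with Python 3.11.15 (numpy 2.4.6, pandas 2.3.3). Members and lists were chosen with earlier results of these data known. All 33 members are accounted for. Fold change, SE and adjusted p are given for at most the 8 called members of largest change in each comparison, for Ppara and Cpt1a, and for at most 2 other pathway genes. Some results were chosen after their values were seen. These are Abcd2 and Crot with dex, and members called without replicate 4, with a series term or in fits of the compared groups alone. They also include the members described between ZT10 and ZT14 and between fed DIO and lean livers. GFP replicate 1 and unfed DIO replicate 1 were likewise singled out by values of members. Alternatives were the pseudocount, the low-value filter, median-ratio scaling, the other threshold, the replicate block, the compared groups alone, each library left out, a term for the library number series in injected mice and, chosen after seeing the data, the injected mice without replicate 4 and counts of members not overlapping after scaling.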

Additional observations from a re-analysis of the deposited data

Results flagged for a closer look

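Part of the members' values was checked, in 63 sets of 4 libraries, each for a library far from the others. The sets were those of the called members of largest change in each comparison, and of Ppara and Cpt1a. Of the 63 sets, 2 stood out, where chance gives about 5%. Cpt1a in IRS knockout replicate 1 was at 146.057 RPKM, below 168.2 to 170.5 in the others, and still above all floxed livers. Ehhadh in floxed replicate 2 was at 98.503 RPKM, below 121.1 to 125.6 in the others. Sets of other members were not checked, among them Pex11a with GFP, at 104 RPKM in replicate 1 and 43.7 to 45.0 in the others.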

How the results depend on the processing

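The direction was followed for 39 gene results, those of the called members of largest change and of Ppara and Cpt1a in some comparisons. None of the 39 changed direction under an alternative. Other fold changes in the text were not among them, nor was Cpt1a after GR loss, no longer above 0 after median-ratio scaling. Within the 39, called ones kept their call in 315 settings and lost it in 73, and the uncalled stayed so in 187 and passed in 9. The all-gene median lay over 0.1 from 0 in 3 comparisons before scaling (0.118 NRF meal, 0.1001 injected meal, -0.139 both agents).

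Counts of members called in either direction moved as follows, the cause not being tested. Where the share of all genes in the same fit is not given above, these counts and those further below carry no comparison with other genes. With the other threshold (0.05 for 0.01, or the reverse), they were 6 from ZT10 to ZT14-unfed, 3 from ZT10 to ZT14-fed, 0 with dex, 2 with S961, 1 with both agents against fed and 0 against unfed vehicle, 6 after GR loss, 4 after IRS loss, 2 with the lean meal and 1 between unfed diets. With no filter they were 0 from ZT10 to ZT14-fed, 0 for both agents against unfed and 6 after GR loss. With a filter at 2 RPKM they were 1 from ZT10 to ZT14-unfed and 1 with the lean meal. Scaling gave 0 with dex, 6 with S961, 6 with both agents, 6 after GR loss (9 not overlapping), 7 after IRS loss and 1 with the lean meal. Without replicate 4 they were 1 with the injected meal, 9 with dex and 2 for both agents against unfed, and with a series term 4 with dex, 8 with S961, 5 with both agents and 3 against unfed. Groups fitted alone gave 0 with dex, 1 with S961, 0 against unfed, 2 with the lean meal and 5 between fed diets.

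Leaving out 1 library gave 0 to 2 from ZT10 to ZT14-unfed, 0 to 0 for ZT14-fed against ZT10, 0 to 2 with dex, 2 to 7 with S961, 2 to 4 with both agents, 0 to 2 against unfed, 6 to 12 after GR loss, 5 to 11 after IRS loss and 0 to 2 between unfed diets, and 0 elsewhere.

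In no experiment did every same-numbered pair of livers correlate above 0.1, so the numbers were not taken as pairs, although replicate 4 of the injected groups did correlate (0.441 to 0.605). Correlations of same-numbered deviations ran from -0.029 to 0.048 in NRF, -0.12 to 0.605 in injected mice, -0.055 to 0.154 in L-GRKO, -0.059 to 0.064 in L-IRSdKO and -0.201 to 0.215 in obesity. A replicate block gave 0 for ZT14-fed against ZT10, 4 with dex, 7 with S961, 5 with both agents, 3 against unfed, 9 after GR loss and 6 after IRS loss. With 2 to 4 livers a group and no counts, depth cannot be weighed per gene.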
